A study of Arabidopsis thaliana with 7 samples.

Results

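Across male gametophyte development in Arabidopsis thaliana, 28 of the 22746 probe sets on the ATH1 array that are not controls had a signal that stayed nearly level from the microspore to the tricellular pollen stage and was then low in mature pollen. These 28 probe sets were chosen by their measured values on all 7 arrays. A member had a deposited signal of at least 150 on each of the 6 arrays taken before maturity, which covered microspores with a single nucleus (UNM), pollen of the bicellular stage (BCP) and pollen of the tricellular stage (TCP), its highest of those 6 signals was at most 2.5 times its lowest, and 3 times its signal in mature pollen grains (MPG) did not exceed that lowest value. Because every array entered the choice, the drop at MPG is a description of the members, and no test was made of it or of the level stretch before it. The count depended on the array scaling: the same rule gave 18 probe sets after quantile normalization, 10 of them among the 28, and 7 when arrays were scaled on the spiked bacterial controls, 5 of them among the 28.

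The spores came from wild-type Landsberg erecta plants (ecotype label Ler-0, with no genetic modification) grown in compost. UNM, BCP and TCP were separated from ground inflorescences of pooled plants on Percoll density gradients, whereas MPG was collected from open flowers by another procedure, so that stage and isolation cannot be told apart in the step from TCP to MPG. Each of UNM, BCP and TCP was hybridized on 2 arrays and MPG on 1 array. The replicates came from separately grown plant populations, and the low MPG signals had no replicate check here. The gradient fractions were enriched and not pure: the study's staining found spores of other stages in the UNM, BCP and TCP isolates. The share of such spores was largest in BCP and smallest in UNM.

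A microspore divides asymmetrically to give bicellular pollen, with a large vegetative cell that encloses a small generative cell, and the generative cell divides again to give the 2 sperm cells of tricellular pollen. Developing pollen is rich in mitochondria, and respiration through the mitochondrial electron transport chain is known to be required for its development. During the last phase the grain dries, fills with storage products and becomes ready to germinate. In many plants it carries into germination a store of transcripts and proteins made earlier.

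Every array had been brought to the same mean signal, so a probe set measured the share of its transcript in the RNA of a stage. Less of a transcript per grain and more of the other transcripts cannot be told apart. In all gene lists here, a gene was called measured where a probe set was annotated with it alone. Other listed genes may be on the array without such annotation. Known late pollen transcripts followed the stage labels. The 4 of 7 listed markers measured here had a median signal of 11.6 in UNM and 3837 in MPG. Among them were the receptor kinases ANX1 and ANX2 that act at the pollen tube tip. The tapetum marker list gave a median of 24.5 and the meiocyte list 43.2 in UNM, from 3 of 9 and 2 of 4 listed genes. Of 3 leaf markers listed, only RCA was measured. Its mean signal was 83.25 in UNM, 148 in BCP and 89.5 in TCP, and it was 43.7 in MPG. The source of this leaf marker signal was not tested. The MPG array had the highest background in the array labels, 75.8 against 56.0 to 64.8 on the other arrays, and its part in the low signals was not tested.

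Among the members, the ratio of the TCP mean to the MPG signal had a median of 4.08 and ranged from 3.16 to 10.8. The same ratio had a median of 1.56 over the 985 probe sets that met the first 2 conditions whatever their MPG signal, called the even set here, and of 1.10 over the 3496 probe sets with both TCP arrays at 150 or more. An MPG signal of at most 1 part in 3 of the lower TCP signal was found for 271 of those 3496 (7.75%), and all 28 members were among them by construction. The members were 2.84% of the even set, a share that the rule itself fixed.

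Such a drop at maturity was mostly found in transcripts with a different course. Of the 271 probe sets, 198 were outside the even set, and in 164 of these both TCP signals lay above both BCP signals. The other 73 were in the even set, and 45 of them were not members because their lowest signal came before TCP and MPG was more than 1 part in 3 of it. Only 43 of the 271 had all 6 earlier signals at 150 or more and an MPG signal low against the lowest of them, and 15 of the 43 were left out because their earlier signals spanned more than 2.5 times. The 28 members were thus a small part of the transcripts that were much lower in MPG than in TCP.

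**Figure D1:**
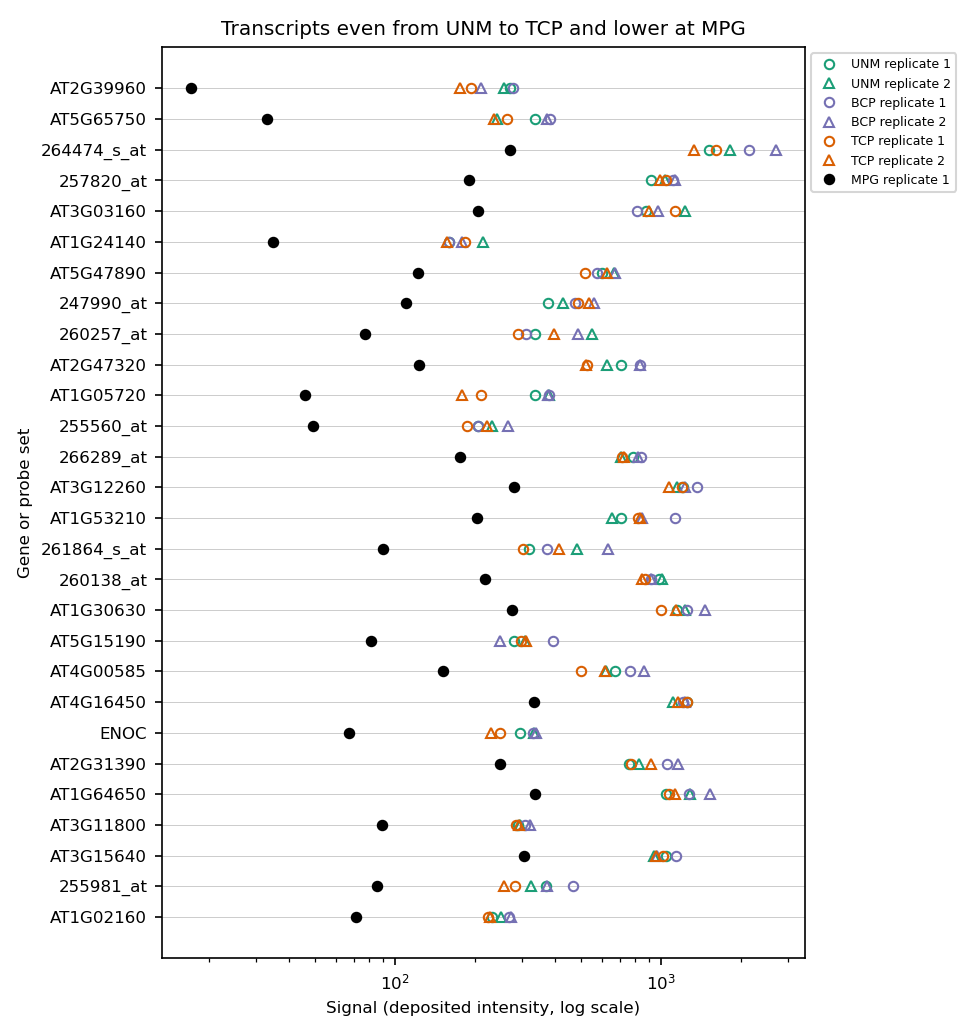
Deposited signal of each of the 28 members on the 7 arrays (log scale), 1 row per gene or probe set, with circles for replicate 1, triangles for replicate 2 and a color for each stage; filled circles are the single MPG array. In every row the MPG point lies apart on the left, at signals from 17.1 to 336, while the 6 earlier points lie within 2.12 times of each other.

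A single gene was listed for 19 of the 28 probe sets, several genes for 1 and none for 8. Sorted by what is known of their products, the named members included genes of mitochondrial respiration, carbon metabolism, the secretory pathway, protein folding and membrane transport. The shares of these groups over all probe sets were not counted, so the group sizes cannot show a preference. These groupings were made after the members had been seen, and the gene lists set beside them below were likewise drawn up then.

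Respiration contributed 6 members. NADH dehydrogenase, complex I of the electron transport chain, is a large enzyme of the inner mitochondrial membrane that takes electrons from NADH and passes them to ubiquinone, and 4 of its nuclear-encoded subunits were members.

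AT5G47890, which encodes the B8 subunit, gave signals of 602 and 666 in UNM, 575 and 675 in BCP and 519 and 627 in TCP, against 122 in MPG. The 3 early stages overlapped, and the TCP mean was 4.71 times the MPG signal. AT3G12260, which encodes the B14 subunit, a small protein of the LYR family, gave 1209.6 and 1151 in UNM, 1366 and 1238 in BCP, 1207 and 1075 in TCP and 279 in MPG. Its ratio of TCP to MPG was 4.08, the same as the median of all members.

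AT4G16450, another accessory subunit of complex I, was 1 of the 2 flattest members. It gave 1256 and 1109 in UNM, 1209 and 1234 in BCP, 1258 and 1160.2 in TCP and 334 in MPG. Its highest early signal was 1.13 times its lowest, and its TCP mean was 3.62 times the MPG signal. AT4G00585, a small subunit of the same complex, gave 674 and 625 in UNM, 764 and 869 in BCP, 502 and 617 in TCP and 151 in MPG. Here both BCP signals lay above both UNM signals and both TCP signals lay below them, so that the early stages drifted by up to 1.73 times before the lower MPG signal.

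Cytochrome c oxidase, complex IV, reduces oxygen at the end of the chain. Its subunit gene AT3G15640 (COX5b-1) gave 1044 and 945 in UNM, 1137 and 966 in BCP, 1023 and 959 in TCP and 306 in MPG, with overlapping early stages and a ratio of TCP to MPG of 3.23. AT1G02160, whose product resembles the Cox19 factors that help assemble complex IV in yeast, gave 231 and 251 in UNM, 268 and 274 in BCP, 223 and 227 in TCP and 71.3 in MPG. Its ratio, 3.16, was the smallest of all members.

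Lower MPG signals were not limited to the members of complex I. Of 40 complex I genes listed, 26 were measured by a probe set with a single gene, all 26 had both TCP signals at 150 or more, and 24 of the 26 belonged to the even set (92.3%, against 4.33% of all probe sets and 28.2% of those with both TCP signals at 150 or more). The MPG signal was below both TCP signals for 21 of the 22 that were not members, against 50.7% of the 3496 and 71.6% of the even set. The median ratio of TCP to MPG was 2.12 over these 22 and 2.24 over all 26.

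AT2G27730, whose product is also assigned to complex I, came close to membership, and its ratio of TCP to MPG, 4.46, was above those of 3 of the 4 members. It gave 1129.8 and 817 in UNM, 1252 and 988 in BCP, 1373 and 1120.2 in TCP and 279.7 in MPG, and only its lower UNM signal kept it out, since MPG was 34.2% of that value. At the other end was AT5G11770, which encodes an iron-sulfur subunit of the complex. It gave 773 and 599 in UNM, 951 and 845 in BCP, 1764 and 1509 in TCP and 1671 in MPG, so its MPG signal lay between the 2 TCP signals. Over all 26 subunits, the MPG signal was below both TCP signals for 25, and this count was 25 after rescaling, 26 after quantile normalization and 23 when arrays were scaled on the spiked bacterial controls, and the median ratio stayed between 2.04 and 2.24.

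**Figure D2:**
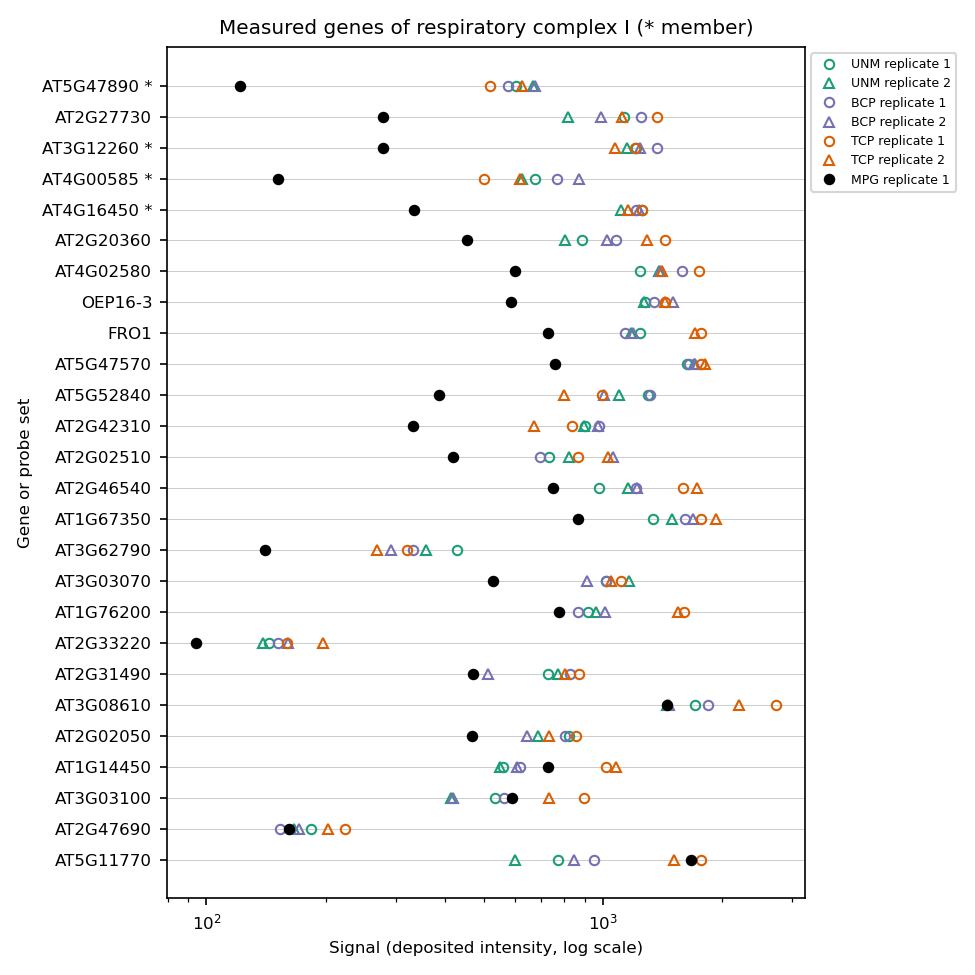
Deposited signal of the 26 measured complex I probe sets on the 7 arrays (log scale), with symbols as in the plot of the members; asterisks mark the 4 members. In 25 of the 26 rows the filled MPG circle lies left of both TCP points, and in the row of AT5G11770 it lies between them.

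The other electron transport complexes showed a similar lowering. Over complexes II to IV, 22 probe sets were measured, 18 had both TCP signals at 150 or more, and 1 of the 18 was a member. All 17 that were not members were lower in MPG than on both TCP arrays, against 50.7% of the 3496 and 71.6% of the even set, with a median ratio of 2.29. Of 9 mitochondrial ATP synthase genes listed, 2 were measured, both in the even set and neither a member. Both were lower in MPG than on both TCP arrays, with a median ratio of 1.65 against 1.56 for the even set. AT1G15120, which encodes the hinge subunit of complex III, missed membership by a narrow margin. It gave 912 and 989 in UNM, 877 and 1014 in BCP, 743 and 770.3 in TCP and 248 in MPG, which was 33.4% of the lowest of the 6.

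Carbon metabolism contributed 3 members. The 2-oxoglutarate dehydrogenase complex carries out a decarboxylating step of the tricarboxylic acid cycle, and AT5G65750 encodes its E1 component, the subunit that binds the substrate. AT5G65750 gave 337 and 242 in UNM, 382 and 375 in BCP, 265 and 235 in TCP and 32.9 in MPG. Its TCP mean was 7.60 times its MPG signal, the second highest ratio of the members.

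The second E1 gene of this complex, AT3G55410, took a different course. It gave 541 and 492 in UNM, 576 and 519 in BCP, 832 and 875 in TCP and 620.2 in MPG, so it was higher in TCP than at the earlier stages and its MPG signal remained above all 4 UNM and BCP signals. The E2 gene AT5G55070 was at 453 and 449.8 in TCP and 186 in MPG, and the E2 gene AT4G26910 at 612 and 677 in TCP and 547 in MPG. All 4 listed genes of the complex were in the even set, with ratios from 1.18 to 7.60, and of the 4 only AT5G65750 reached the limit of the rule.

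Enolase interconverts phosphoglycerate and phosphoenolpyruvate in glycolysis. ENOC (AT2G29560), a cytosolic enolase, gave 296 and 335 in UNM, 332 and 340.5 in BCP, 249 and 230.0 in TCP and 67.2 in MPG. Both TCP signals were below all 4 earlier signals, and the MPG signal was lower again, with a ratio of TCP to MPG of 3.57.

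Fructokinases phosphorylate fructose that is set free when sucrose is cleaved. The fructokinase gene AT2G31390 gave 761 and 832 in UNM, 1059 and 1161 in BCP, 776 and 918 in TCP and 249 in MPG. BCP was the highest stage, and UNM and TCP overlapped. At much lower signals, the fructokinase gene AT5G51830 had a similar course, with 45.2 and 34.6 in UNM, 53.4 and 48.0 in BCP, 52.3 and 38.3 in TCP and 4.0 in MPG, under the minimum of 150 throughout. The drop was placed differently in 2 others. AT4G10260 had 2575 and 3008 in UNM and 2428 and 2947 in BCP, was already at 479 and 386 in TCP, and had 672 in MPG. AT3G59480 likewise had 2632 and 3129.5 in UNM, 1785 and 1609 in BCP, 121 and 97.4 in TCP and 185 in MPG. AT4G10260 and AT3G59480 were lower in TCP than at the earlier stages, and not lower again in MPG, whereas the lower signal of AT2G31390 appeared first in MPG.

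The secretory pathway contributed the member with the largest ratio of TCP to MPG. AT2G39960 encodes a homolog of SPC25, a subunit of the signal peptidase complex, which removes signal peptides from proteins entering the endoplasmic reticulum. It gave 271 and 257 in UNM, 277 and 210.1 in BCP, 192 and 176 in TCP and 17.1 in MPG. The ratio was 10.8, and its MPG signal was the only one among the members that lay below the median signal of the MPG array, 31.4.

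Other subunits of the signal peptidase complex were lower in MPG as well, by less. All 5 of the other measured genes of the complex had MPG signals below both TCP signals, as did 50.7% of the 3496 and 71.6% of the even set, with a median ratio of 2.37. AT2G22425 went from 303 and 315 in TCP to 86.7 in MPG, but it was at 654 and 862 in UNM, and its early signals spanned 2.85 times, more than the rule allowed. AT3G15710, which encodes a catalytic subunit, was at 1656 and 1419 in TCP and 564 in MPG, a ratio of 2.73.

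The coatomer COPI coats vesicles that return proteins from the Golgi to the endoplasmic reticulum. AT1G30630, which encodes its epsilon subunit, gave 1149 and 1234 in UNM, 1252 and 1473 in BCP, 998 and 1140.2 in TCP and 275 in MPG, with a ratio of 3.89. Of 11 COPI probe sets measured, 8 had both TCP signals at 150 or more, and 7 of the 8 were not members. Of these 7, 6 were lower in MPG than on both TCP arrays, against 50.7% of the 3496 and 71.6% of the even set, and their median ratio was 2.02. The exception was 1 of the 2 probe sets of AT1G79990, at 366 and 332 in TCP and 348 in MPG.

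Protein folding was represented by AT2G47320, a peptidyl-prolyl isomerase of the cyclophilin type, and by AT1G05720, a relative of the mammalian selenoprotein SEP15, which binds a folding sensor of the endoplasmic reticulum in mammals. AT2G47320 gave 709 and 627 in UNM, 832 and 839 in BCP, 526 and 522 in TCP and 123 in MPG. AT1G05720 gave 338 and 379 in UNM, 379 and 376 in BCP, 211 and 179 in TCP and 45.9 in MPG. Both genes were lower in TCP than on any earlier array, and AT1G05720, whose TCP mean was 0.54 of its UNM mean, spanned more of the permitted range than any other member (2.12 times).

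Membrane transport contributed AT1G53210 and AT1G64650. AT1G53210 (NCL) encodes a sodium/calcium exchanger-like protein and gave 709.7 and 655 in UNM, 1133 and 854 in BCP, 822 and 834 in TCP and 203 in MPG. It was 1 of only 2 members with both TCP signals above both UNM signals. AT1G64650, a member of the major facilitator superfamily of transporters, gave 1049 and 1285 in UNM, 1279 and 1530.4 in BCP, 1077 and 1132 in TCP and 336 in MPG, the highest MPG signal of the members.

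A secreted or membrane-bound protease was also found. AT1G24140 encodes a matrixin, a metalloprotease of the family that acts on the extracellular matrix in animals, and gave 159 and 215 in UNM, 159.6 and 179 in BCP, 184 and 156 in TCP and 34.7 in MPG. Its lowest signal lay nearest to the minimum of 150 among the members. Of the 5 matrixin genes, all of which were measured, AT1G70170 showed the opposite course, with 20.7 and 49.1 in UNM, 28.7 and 27.3 in BCP, 205 and 197 in TCP and 596 in MPG. The other 3 matrixin genes stayed at or below 23.7 on every array.

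Among the genes with no role given here, AT3G03160 gave 882 and 1231 in UNM, 816 and 973 in BCP, 1128 and 901 in TCP and 204 in MPG, a ratio of 4.96. AT3G11800 was as flat as AT4G16450, with early signals from 286 to 324, and was at 89.6 in MPG. AT5G15190 had early signals from 248 to 392 and 81.2 in MPG. In all 3 genes the UNM and TCP signals overlapped.

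The probe sets without a single listed gene behaved like the named ones. 264474_s_at had early signals from 1338 to 2707, the widest in signal units of any member, and was at 272 in MPG. 257820_at stayed between 916 and 1131 and was at 190.4 in MPG. Their ratios of TCP to MPG, 5.42 and 5.36, followed those of AT2G39960 and AT5G65750. In the other 7 of these 9 probe sets the ratio ranged from 3.17 to 4.67. Of those 7, 247990_at was the second member with both TCP signals above both UNM signals: it gave 377 and 429.8 in UNM, 477 and 562 in BCP, 486 and 539 in TCP and 109.7 in MPG. 266289_at and 260138_at were among the flatter members, each with early signals within 1.19 times of each other, from 708 to 841 and from 851 to 1009, and were at 175 and 218 in MPG. 255560_at had early signals from 187 to 267 and 49.3 in MPG. 255981_at, which lay nearest to the MPG limit, had both TCP signals, 283 and 258, below its 4 earlier signals of 326 to 467 and was at 85.3 in MPG.

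Whether any of these transcripts was lost in MPG was not decided, because signals alone were used and no detection calls. In MPG, 25 of the 28 still had a signal of at least 40, and 16 had at least 100. Both counts were low beside the even set, in which 982 of 985 reached 40 and 904 reached 100. Of all 22746 probe sets, 9713 reached 40 on the MPG array. Ranked among all probe sets that are not controls, the members had a median percentile of 93.7 in TCP and of 82.7 in MPG, whereas the even set moved from 91.4 to 90.3. Signals depend on each probe set's probes as well as on transcript level, so these ranks place signals and not amounts. Apart from AT2G39960, every member stayed above the median signal of the MPG array, 31.4. AT5G65750 at 32.9 and AT1G24140 at 34.7 were close to it.

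Within the even stretch, the members were highest in BCP more often than the even set. The rule limited the size of the differences among UNM, BCP and TCP and set MPG against the lowest of them, so the counts that follow are descriptions. This choice worked against probe sets that rose into TCP, so part of any difference from the even set can come from the rule. The BCP mean was the highest of the 3 stage means in 22 of 28 members, against 31.8% of the even set. Both BCP signals lay above both UNM signals in 14 members (33.3% of the even set), and both TCP signals lay below both BCP signals in 18 (33.7%). Relative to the UNM mean, the median member was at 1.11 in BCP, 0.92 in TCP and 0.23 in MPG.

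A net increase from microspore to tricellular pollen was uncommon among the members, and the rule itself worked against it. MPG was set against the lowest of the 6 signals, so a probe set with a lower UNM signal needed a lower MPG signal to be chosen. The shares of the even set given here are therefore not an independent comparison. Both TCP signals lay above both UNM signals in 2 members, AT1G53210 and 247990_at, against 44.5% of the even set, and both lay below in 9, against 29.7%. After quantile normalization these counts became 0 and 19, and with arrays scaled on the spiked controls 0 and 3, so that these counts depended on the scaling, while members below outnumbered members above in each case. Within replicate numbers, TCP lay below UNM in both pairs for 16 members (36.6% of the even set) and above in both for 5 (52.1%). Among the same 28, the count with BCP highest was 22 after rescaling, 22 after quantile normalization and 28 with spiked controls. With members taken again under each of these scalings it was 23 of 30, 14 of 18 and 6 of 7. In the even set taken again in the same way the share was 31.7%, 39.1% and 62.6%, of 997, 943 and 123 probe sets.

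**Figure D3:**
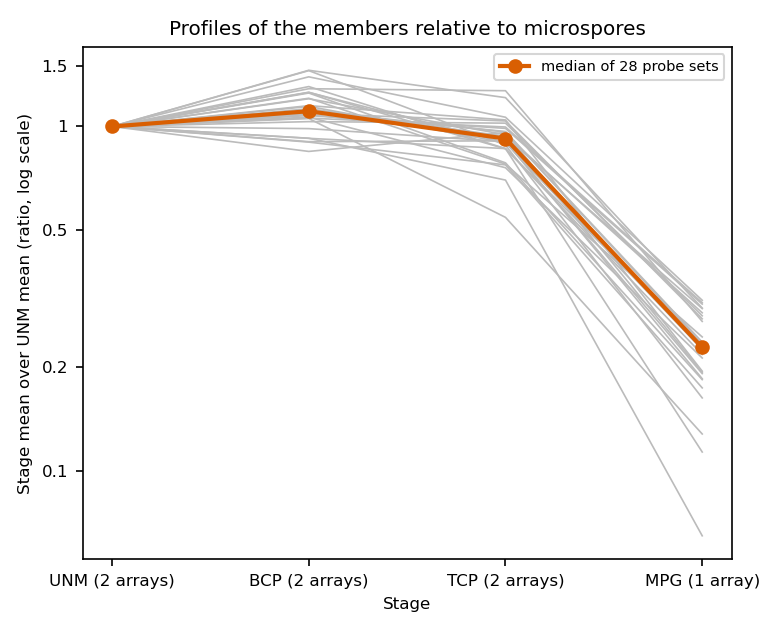
Stage means of each of the 28 members divided by its UNM mean (thin lines, log scale) and their median (thick line) at UNM, BCP, TCP and MPG. The median goes from 1 to 1.11, 0.92 and 0.23, so the lines stay close to level until TCP and drop together at the single MPG array.

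Replicate arrays of the members lay close together at most stages, within limits that the rule set. The ratio of the higher to the lower replicate had a median over the members of 1.12 in UNM, 1.16 in BCP and 1.10 in TCP, and at most 1.64, 1.71 and 1.37. No such spread could be measured for MPG. Replicate 2 lay above replicate 1 at all 3 stages in 10 members, against 28.9% of the even set. 2 probe sets without a single gene showed this most. 260257_at gave 337 and 551 in UNM, 310.1 and 489.9 in BCP, 289.6 and 397 in TCP and 77.4 in MPG. 261864_s_at, listed with several genes, gave 319 and 482 in UNM, 372 and 634 in BCP, 304 and 416 in TCP and 90.2 in MPG. In both, the widest gap between replicates exceeded every gap between the UNM, BCP and TCP means, and the MPG signal lay below all 6 earlier signals. The arrays of replicate 2 also differed in the control for RNA or cDNA length, with a log2 ratio of the 3′ to the 5′ GAPDH probe sets of 2.76 to 3.19, against 0.63 to 1.06 for replicate 1 and 1.21 for MPG. Its part in these values was not tested.

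The even set as a whole shows where the members stood. For a probe set of the even set, the MPG signal was at the median 81.9% of the lowest of its 6 earlier signals, with 54.7% at the 25th percentile and 36.5% at the 5th. Just inside the MPG limit were 255981_at at 33.1% and AT2G31390 at 32.8%, and just outside were AT1G15120 and 261721_at, both at 33.4%. The members with the largest span of early signals were AT1G05720 at 2.12 times and 261864_s_at at 2.08 times, and the nearest probe sets left out for their span were 257333_at at 2.66 and 247058_at at 2.77. The lowest early signals of members were 156 for AT1G24140 and 176 for AT2G39960, and 256251_at at 149.8 and 250527_at at 149 fell just short of the minimum.

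**Figure D4:**
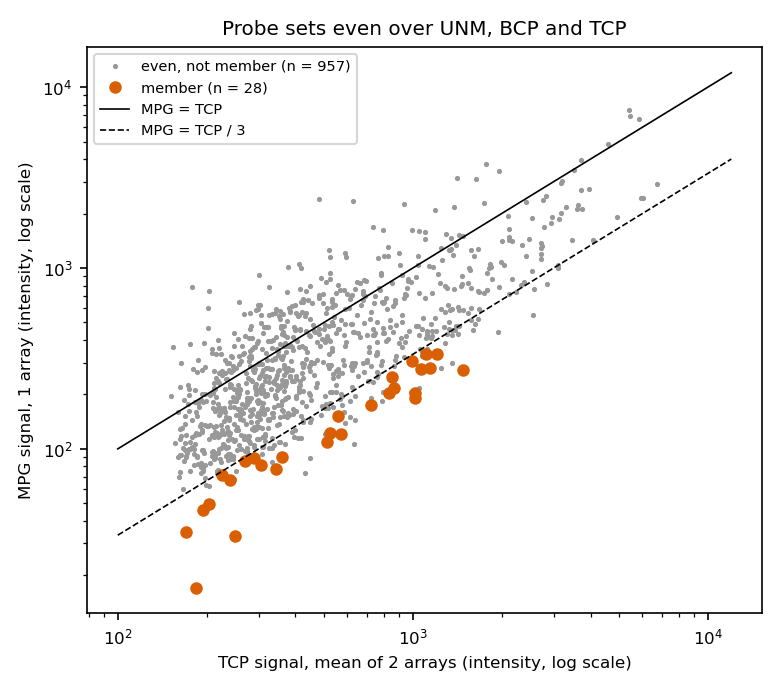
MPG signal (1 array) against the mean TCP signal (2 arrays), both on log scales, for the 985 probe sets even over UNM, BCP and TCP; orange circles are the 28 members and gray points the rest, and the lines mark equal signals and an MPG signal 3 times lower. The members lie in the lower part of a continuous cloud among other probe sets as far below the lines, 45 of which had an MPG signal of at most 1 part in 3 of both TCP signals; AT2G39960 is lowest at 17.1 in MPG.

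The lists of regulatory genes were matched only against the 19 members with a single listed gene. Of 1350 transcription factor genes listed by the study, 419 had a probe set annotated with that single gene. These gave 423 probe sets, of which 43 had both TCP signals at 150 or more, and none was a member. Of 82 core translation factors listed, 32 were matched in the same way, by 32 probe sets. Both TCP signals were at 150 or more for 12 of these probe sets, and none was a member. The study's list of 61 cell-cycle genes matched no probe set by single-gene annotation and was not analysed here. The paper reports that most of these genes were on the array. Unmatched genes could not be checked, so the counts cover only the matched part of each list. With 28 members on the whole array, few or none could fall into lists of this size. Lists drawn up by gene symbol held no member either, but they matched only between 1 and 17 probe sets each and left out the respiratory and coatomer members named above. They covered the proteasome, vacuolar H+-ATPase, SNAREs, Rab and ARF GTPases, vesicle coats and exocyst, ubiquitin-conjugating enzymes, sugar transporters, chaperones or mitochondrial import and respiration.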

How the data were processed

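The members and all gene lists were chosen with earlier results of these data known. RNA of each isolate was hybridized by the authors to Affymetrix ATH1 arrays. For every probe set the deposited table holds an intensity from each array, on a linear scale, and all 7 arrays share a mean of 100 once the lowest and highest 2% are left out. Which software made them was not stated in the sources read. The study's own analysis used dChip on a larger set of arrays. Values were used as deposited, without a log transform, filter or test, after leaving out 64 control probe sets. Each probe set was named only where the platform annotation listed 1 gene (13513 probe sets; 503 had several genes and 8730 none). Probe sets were not merged. Genes named are those with the largest ratio of TCP to MPG, the highest, flattest and most drifting members, those nearest the limits of the rule, and members of the lists. Where a role group is described, further members and relatives were named after their values were seen. The code of the rule was run on simulated signals made to meet or to miss its limits. This checks the code only, not the behavior of the rule under array noise. The number of arrays limits the precision. Alternatives were 3 array scalings, other limits of the rule, a floor of 20, and leaving out each array of UNM, BCP and TCP. Python 3.11.15, pandas 2.3.3 and numpy 2.4.6 were used.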

Additional observations from a re-analysis of the deposited data

How the results depend on the processing

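The number of members, 28, was 30 after rescaling without controls, 18 after quantile normalization (10 of them shared) and 7 with spiked-control scaling (5 shared). It was 40 or 24 with a minimum of 100 or 200, and 25 or 32 with a span of at most 2 or 3 times. It was 190 or 8 with MPG at most 1 part in 2 or in 4 of the lowest signal, and 139 against the mean of the 6 signals. Without single arrays it was 30 to 44, the highest without TCP replicate 2. Leaving out an array relaxes the rule, so this count could not fall, and all 28 stayed members. Only 3 probe sets, AT5G47890, AT3G03160 and 255560_at, were members under the deposited values and all 3 scalings. The median ratio of TCP to MPG, 4.08, was 3.05 for the same probe sets and 3.69 for those taken again after quantile normalization, 3.81 and 4.02 with spiked controls, 4.09 and 4.10 after rescaling, 4.08 with a floor of 20, and 3.90 to 4.13 without single TCP arrays. The 2 members above UNM in TCP became 0 after quantile normalization, 0 with spiked controls and 4 to 7 without single arrays. The 9 members below became 19, 3 and 13 to 18. With an array left out both conditions are easier to meet, so those counts could only stay or rise. With replicate numbers as pairs, as a replicate block would take them, 5 members lay above in both pairs and 16 below in both; whether the numbers pair the isolates is not stated in the labels. These pairs and the scalings of the BCP count were chosen after seeing the data. The causes were not tested. With only 1 MPG array in the data used here, its error could not be measured.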
